A study of Mus musculus with 20 samples.

Results

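The circadian clock genes Arntl, Clock, Npas2, Per1, Per2, Per3, Cry1, Nr1d1, Nr1d2 and Dbp were examined in the intestine of mice carrying the oncogene BRAFV600E and of mice given a MEK inhibitor. All probes whose gene name equalled one of these symbols were taken, which gave 24 of the 56605 probes of the array and 10 of its 25034 named genes. RNA of 20 C57BL6/j mice was hybridised to 1-colour Agilent arrays, 1 array per mouse. The 6 Cre control mice carried VillinCreER/0 alone, and the 6 BRAFV600E mice carried VillinCreER/0 with the BrafV600E-LSL/+ allele, in which a stop cassette is removed by Cre. By the study's methods, mice of both groups were 8 to 12 weeks old, received 3 daily doses of 2 mg tamoxifen, and were harvested 3 days after the last dose. In a separate experiment, 4 MEKi mice and 4 Vehicle mice received 2 tamoxifen injections and then 3 daily injections of the MEK inhibitor PD184352 or of its vehicle. A treatment text that is the same on all 20 sample labels describes another experiment, atorvastatin given to older female mice. It names none of these groups, and 13 arrays carried Y-linked transcripts at a high level, so the label and the data disagree. For the 8 mice of the inhibitor experiment the sample labels give no genotype, and the study's text describes them as BRAFV600E mice. The Villin promoter acts in the gut epithelium, so the allele is switched on there, whereas the RNA came from whole tissue. The time of day at which mice were harvested is not given in the sources used here, so whether groups were sampled at the same phase of the clock was not tested.

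The mammalian clock is a feedback loop of transcription factors. ARNTL (also called BMAL1) pairs with CLOCK, or with its relative NPAS2, and drives genes through E-boxes, among them the Per and Cry genes whose products then block the pair. A further loop is formed by the nuclear receptors NR1D1 and NR1D2 (REV-ERB alpha and beta), which repress Arntl and Npas2 through ROR elements, and DBP is a directly driven output factor that acts through D-boxes. In tissues with a running clock, including the gut, Arntl and Npas2 peak at about the opposite time of day from Dbp, Nr1d1, Nr1d2 and Per3, so that a difference in sampling time moves the arms apart.

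The elements through which these factors act were searched in RefSeq promoter windows (GRCm38.p6, 250 bases before to 50 after each start site, both strands). The E-box CACGTG was held by 7.15% of all 32851 windows, the D-box TTANGTAA by 2.32% and the ROR element TAGGTCA by 2.61%. Of the 9 members with a window, 4 held a match to any of these motifs in at least 1 window. Members had 1 to 3 windows, and the shares above are per window and per motif, so they are no measure for this count. The stretches around these matches are shown because they are the letters these factors are known to read in clock genes, with the matched letters in capitals, 5′ to 3′ along the strand of the gene.
Per1, chr11:69098769-69098804, plus strand: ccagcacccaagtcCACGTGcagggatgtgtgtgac
Cry1, chr10:85185094-85185129, minus strand: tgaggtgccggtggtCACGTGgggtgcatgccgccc
Per3, chr4:151044805-151044880, minus strand: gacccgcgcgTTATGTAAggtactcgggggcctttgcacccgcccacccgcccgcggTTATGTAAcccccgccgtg
Arntl, chr7:113207532-113207555, plus strand: ggcagaaagTAGGTCAgggacgga
The E-boxes began 166 bases before the Per1 start, in 1 of its 2 windows, and 60 before the Cry1 start. Per3 held 2 D-boxes, beginning 205 and 158 bases before its start, and the ROR element of Arntl lay 31 bases after the start in 1 of its 2 windows. No match was found in the windows of Clock, Npas2, Nr1d1, Nr1d2 and Dbp. A match is a description of these letters and was not tested as a binding site.

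Each gene is reported by its brightest probe, on a log2 scale on which 0 is the 75th percentile of the array. Between 60.8% and 76.8% of spots were well above background on an array, and no spot was saturated. The 6 epithelial marker genes (Epcam, Cdh1, Vil1, Krt20, Cdx2 and Fabp2) were well above background on all 20 arrays. Several libraries stood apart. The slope of the added RNA controls against their known amounts was 1.02 to 1.08 on the MEKi and Vehicle arrays. It was 0.76 to 0.84 on Cre control replicates 2, 3 and 5 (called low here, below a range of 0.9 to 1.2). A slope of exactly 0 is recorded for BRAFV600E replicates 3 to 6, and whether the controls were read there is not known. BRAFV600E replicates 3 to 6 also lay on a slide of their own, and Cre control arrays shared a slide with BRAFV600E replicates 1 and 2. Vehicle replicate 2 carried exocrine pancreas transcripts at a summed level of 1349, against 0.276 to 0.616 on the other 19 arrays. Y-linked transcripts were high on 3 of 6 Cre control, 4 of 6 BRAFV600E, 4 of 4 MEKi and 2 of 4 Vehicle arrays.

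No clock gene differed between BRAFV600E and Cre control mice past the threshold. None of the 10 was called by limma at an adjusted p under 0.05, where 12.5% of all genes tested were called. Clock alone passed an unadjusted limma p of 0.05, at rank 2645 of 19037 genes. The count of all genes under 0.05 lay between that rank and 6133, the rank of Npas2 at an unadjusted limma p of 0.059. None of the 10 had groups that did not overlap, against 7.36% of all genes. Of the 10 members, 2 had a higher mean and 8 a lower mean in BRAFV600E, with a median log2 difference of -0.12 against -0.02 over all genes. The 95% intervals given with the genes show which differences remain possible at this group size. In bulk tissue, fewer cells of a type and less RNA per cell cannot be told apart.

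**Figure D1:**
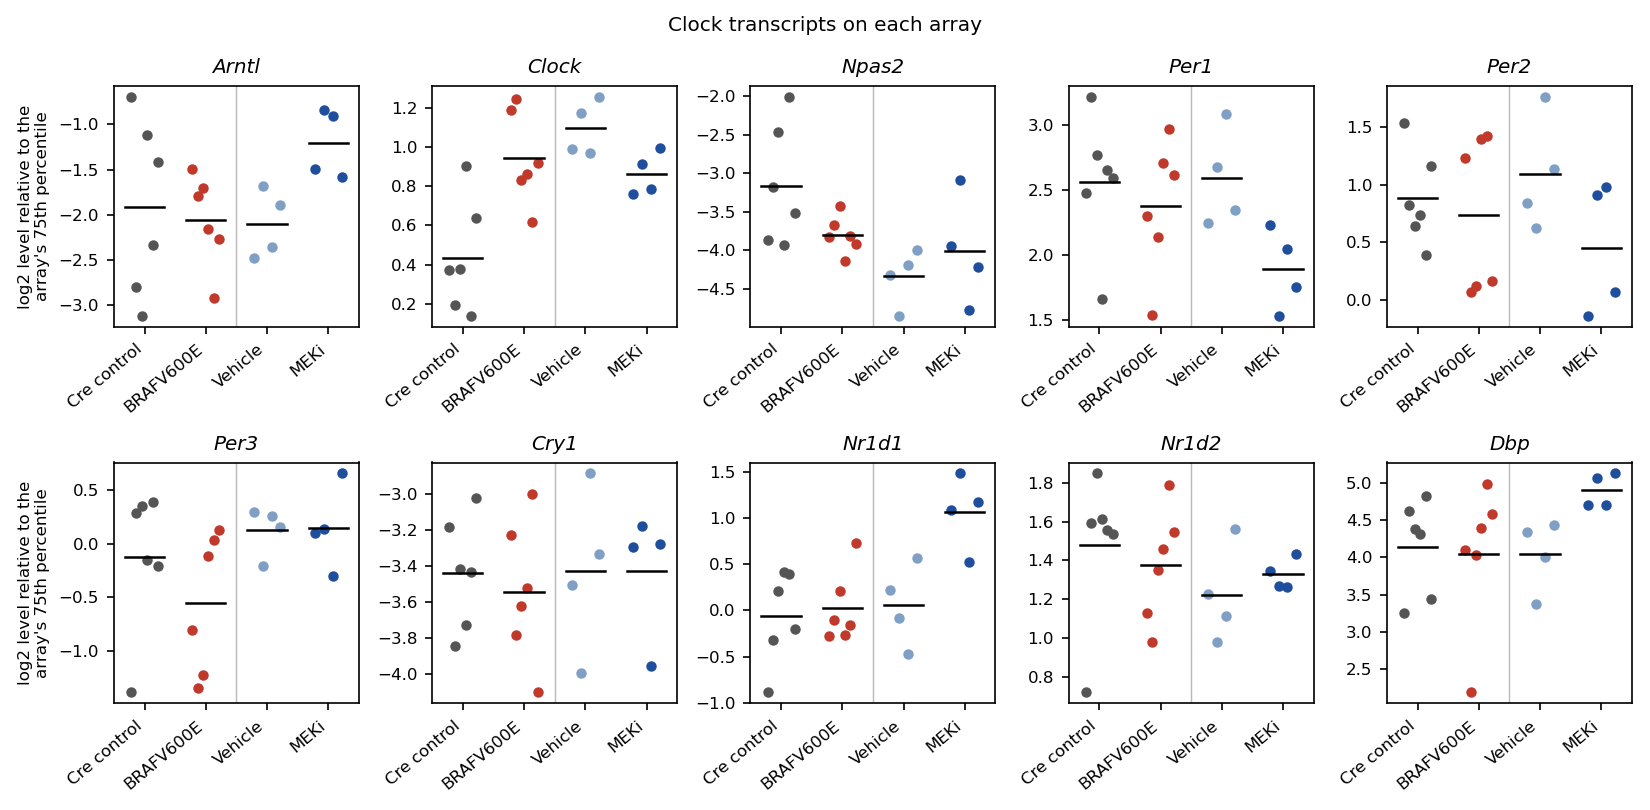
Log2 level of each clock gene relative to the array's 75th percentile, 1 point per mouse, by group, with a line at the group mean. Arntl spread over 2.42 log2 units among Cre control mice, and MEKi and Vehicle points of Arntl, Per1 and Dbp do not overlap.

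Clock, the DNA-binding partner of ARNTL, showed the difference nearest the threshold. Its log2 level was 0.14 at the lowest and 0.90 at the highest among Cre control mice, and 0.62 to 1.24 among BRAFV600E mice. Cre control replicates 1, 2, 3 and 5 lay below every BRAFV600E mouse, and replicates 4 and 6 fell within their range. The difference was 0.51 (SE 0.16, 95% interval 0.16 to 0.86, limma adjusted p = 0.0567). It was 0.78 with slide as a block (limma adjusted p = 0.0386) and 0.78 within the slide that held both groups (limma adjusted p = 0.110). Both values are the same contrast, BRAFV600E replicates 1 and 2 against the Cre control mice. For every gene, BRAFV600E replicates 3 to 6, alone on their slide, add nothing to the slide-block difference and enter only its error estimate. Without the 3 Cre control arrays of low control slope the Clock difference was 0.31 (limma adjusted p = 0.405). The other probes of Clock that were tested were also higher in BRAFV600E, at 0.52 to 0.87. The sign was kept in all 27 alternative settings, and 8 of them passed the threshold, among them those without Cre control replicate 4 (0.60, limma adjusted p = 0.0215) and without BRAFV600E replicate 5 (0.57, limma adjusted p = 0.0457).

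Arntl, the core positive factor, varied widely among mice of the same group on the probe used, and its probes differed in the size of the group difference. The 6 Cre control mice measured -0.70, -2.80, -3.12, -1.12, -2.33 and -1.42, a 5.34-fold range. The 6 BRAFV600E mice measured -1.50, -1.79, -1.71, -2.15, -2.92 and -2.27, inside the Cre control range throughout. The difference was -0.14 (SE 0.41, 95% interval -1.03 to 0.75, limma adjusted p = 0.854), and it was 0.27 with slide as a block. The other 3 Arntl probes were lower in BRAFV600E by more, with differences of -0.43 (SE 0.18), -0.71 (SE 0.32) and, on a probe over an exon junction, -0.77 (SE 0.24), and the lowest of their limma adjusted p values over all probes was 0.0645. On the probe used, without the Cre control arrays of low control slope, the difference was -0.98 (limma adjusted p = 0.127). Npas2, the relative of CLOCK that can take its place, averaged -3.80 ± 0.24 (SD, n = 6) in BRAFV600E and -3.16 ± 0.78 (SD, n = 6) in Cre control mice. Cre control replicates 2, 3 and 5, at -3.19, -2.46 and -2.01, lay above every BRAFV600E mouse. The Npas2 difference of -0.64 (95% interval -1.31 to 0.03, limma adjusted p = 0.184) was -0.03 without those 3 arrays.

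The Per and Cry genes encode the repressors of the loop. Per1 measured 1.54 to 2.97 in BRAFV600E and 1.66 to 3.22 in Cre control mice, a difference of -0.18 (SE 0.28), or -0.64 with slide as a block. Per2 ranged from 0.07 to 1.42 in BRAFV600E and from 0.39 to 1.53 in Cre control mice, and 3 BRAFV600E mice lay below every Cre control mouse. Per3 measured -0.80, -1.35, -1.23, -0.11, 0.04 and 0.13 in BRAFV600E mice, with the first 3 low. In Cre control mice Per3 measured -1.39, 0.29, 0.35, -0.16, 0.39 and -0.21, with 1 low mouse. The Per3 difference was -0.43 (SE 0.35, 95% interval -1.20 to 0.33, limma adjusted p = 0.441). It was -0.96 with slide as a block and within the shared slide (limma adjusted p = 0.226 and 0.273), 0.030 without the Cre control arrays of low control slope, and 0.23 on the other Per3 probe tested. Cry1 averaged -3.54 ± 0.39 (SD, n = 6) in BRAFV600E and -3.44 ± 0.31 (SD, n = 6) in Cre control mice, whereas the other Cry1 probe was higher in BRAFV600E by 0.71 (SE 0.31, limma adjusted p = 0.168 over all probes). The 95% intervals were -0.78 to 0.41 for Per1, -0.80 to 0.50 for Per2 and -0.54 to 0.33 for Cry1.

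The nuclear receptor genes, repressors of Arntl, had group means that differed by less than the spread among mice. Nr1d1 averaged 0.02 ± 0.39 (SD, n = 6) in BRAFV600E and -0.07 ± 0.51 (SD, n = 6) in Cre control mice, with a 95% interval of the difference from -0.45 to 0.63. Nr1d2 averaged 1.38 ± 0.29 (SD, n = 6) and 1.48 ± 0.39 (SD, n = 6), and Cre control replicate 1 was the lowest mouse at 0.72. With slide as a block the differences were -0.12 for Nr1d1 and -0.42 for Nr1d2, and the other 2 Nr1d2 probes differed by 0.09 and 0.22. Dbp, the output factor, measured 4.10, 2.19, 4.02, 4.40, 4.98 and 4.58 in BRAFV600E and 3.25, 4.63, 4.37, 4.32, 4.83 and 3.44 in Cre control mice. BRAFV600E replicate 2 was the lowest of the 12, and the BRAFV600E range was 6.95-fold. The Dbp difference was -0.10 (SE 0.43, 95% interval -1.03 to 0.84, limma adjusted p = 0.911), and -0.36 on the other Dbp probe. It was -0.996 with slide as a block and within the shared slide (limma adjusted p = 0.247 and 0.347), and 0.37 without the Cre control arrays of low control slope.

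**Figure D2:**
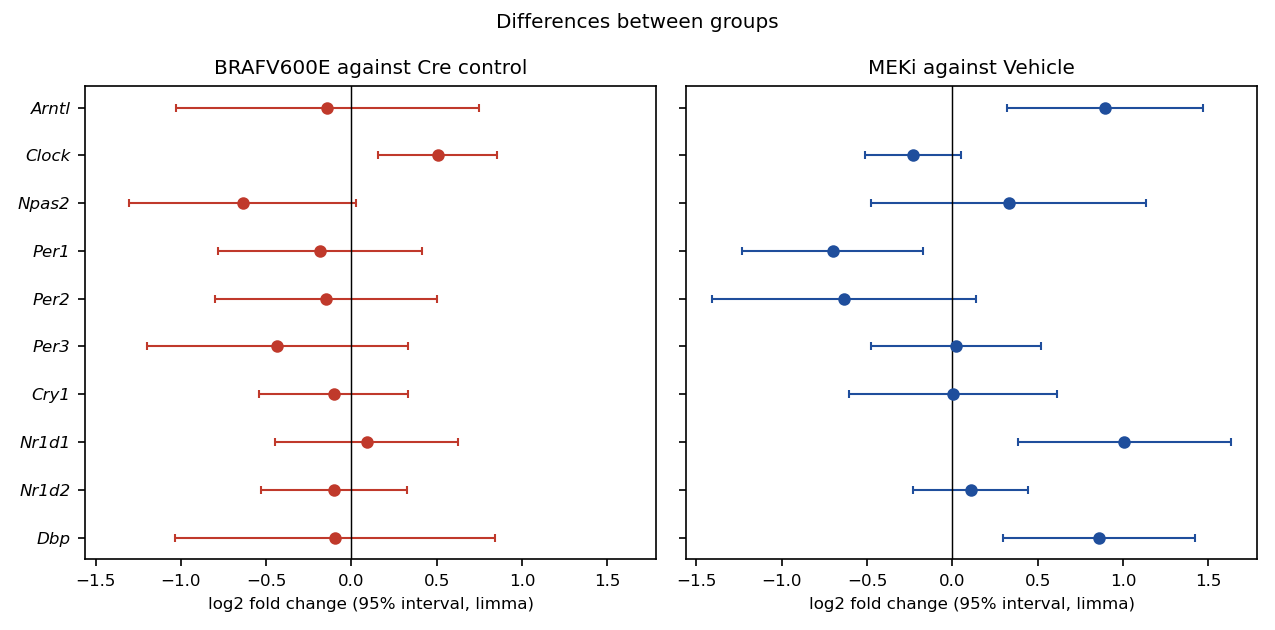
Log2 differences of the 10 clock genes in both comparisons, with 95% intervals from limma. Every BRAFV600E interval except that of Clock (0.16 to 0.86) includes 0, and the MEKi intervals of Arntl, Nr1d1 and Dbp lie above 0 and that of Per1 below.

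In the first experiment, individual mice of the same group differed in the balance between the arms of the loop. For each array the mean deviation of Arntl, Clock and Npas2 from the mean of the experiment was subtracted from that of Dbp, Nr1d1, Nr1d2 and Per3, which gives an index that a constant shift of an array does not change. In Cre control mice the index was -1.06, 0.60, 0.55, 0.05, 0.31 and -0.31. In BRAFV600E mice it was -0.46, -1.05, -0.36, 0.30, 0.82 and 0.62. The group means were 0.02 ± 0.63 (SD, n = 6) and -0.02 ± 0.72 (SD, n = 6), so the means lay within the spread when slide is set aside. On the shared slide, BRAFV600E replicates 1 and 2 averaged -0.75 against 0.02 in Cre control mice, and replicates 3 to 6, on their own slide, ranged from -0.36 to 0.82. Over all 20 arrays, with the group means removed, the correlation was 0.82 between Per3 and Nr1d2, 0.78 between Per3 and Dbp, -0.77 between Arntl and Per3 and -0.55 between Arntl and Dbp. Arntl and Npas2, which share an arm, were correlated at -0.46. Probes of the same gene often followed each other less closely. With the probe used, the other Per3 probes were correlated at 0.34 and 0.27 and the other Arntl probes at 0.04, 0.37 and 0.56. The other Nr1d2 probes were at 0.38 and 0.59, and the other Dbp probe at 0.87. These values are descriptions, since the arrays also share differences in labelling.

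**Figure D3:**
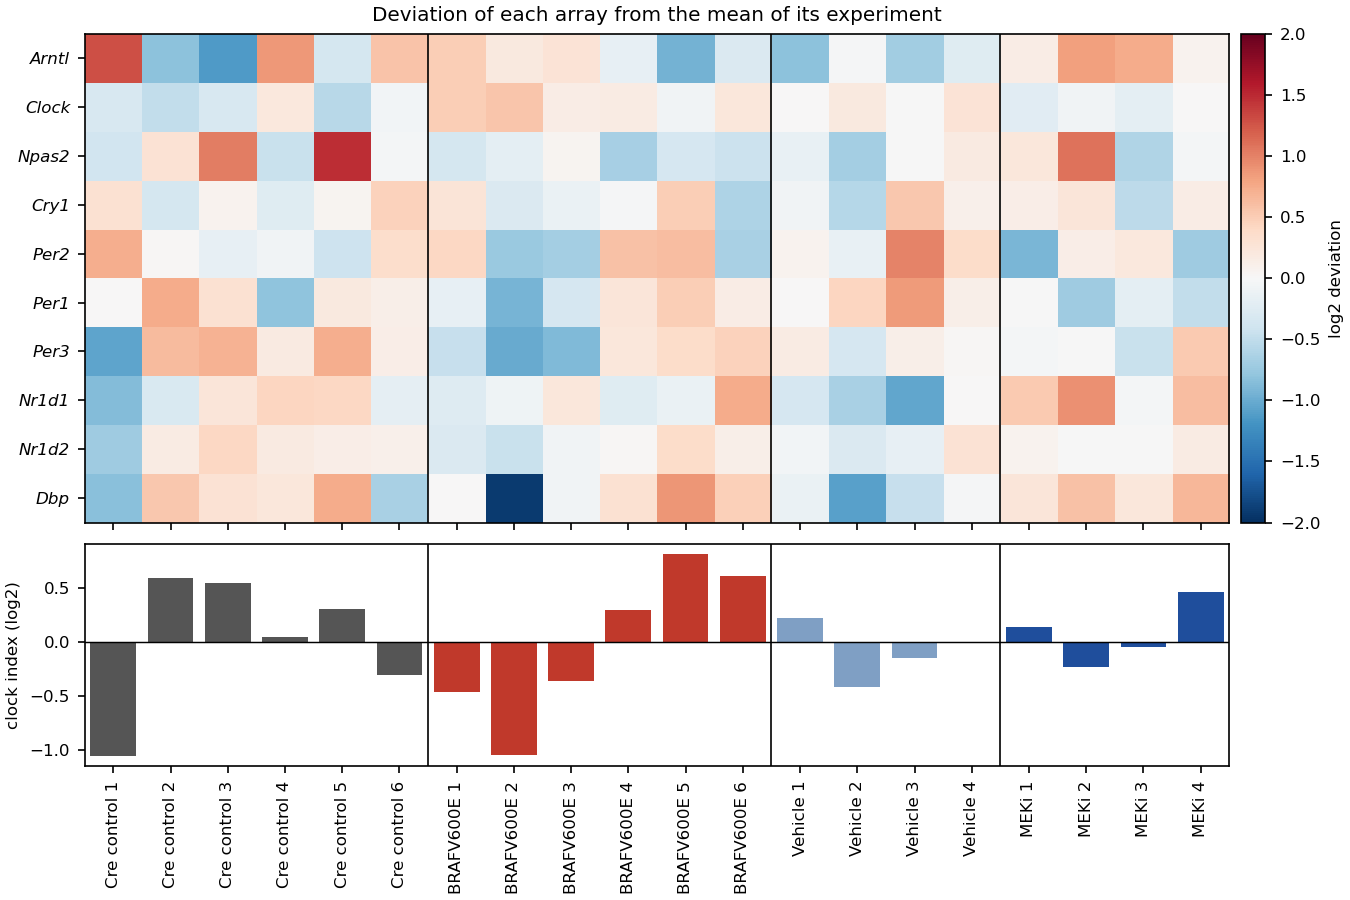
Deviation of each clock gene (rows) from the mean of its experiment on each of the 20 arrays (columns), in log2 units, with the index of the 2 arms. Cre control replicate 1 and BRAFV600E replicate 2 lie lowest on the index, at -1.06 and -1.05.

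Within the Cre control group, the index split by whether the slope of the added RNA controls was low or in range. The 3 arrays of low slope had index values of 0.31 to 0.60, and the 3 arrays in range had -1.06 to 0.05. Of the 10 members, 5 did not overlap between these subsets, beside 28.9% of all genes tested. Arntl averaged -2.75 on the low-slope arrays and -1.08 on the others, a difference of -1.67. Npas2 (1.22), Dbp (0.94), Per3 (0.93) and Per1 (0.64) were higher on the low-slope arrays. The probes of a gene did not move alike. Another Arntl probe differed by -0.94, whereas the remaining 2 differed by -0.06 and -0.01, and the other Dbp probe differed by 0.27. The other Per3 probes went the other way, at -0.13 and, on the dimmest, -0.27, while the other Per1 probe differed by 0.59. The probe with the -0.06 difference spans an exon junction (mm9, chr7:120435023-120436706, plus strand), and it is shown as the sequence behind this value.
Arntl junction probe: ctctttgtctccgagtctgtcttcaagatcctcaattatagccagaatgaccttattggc
The probe used for Arntl lay at chr7:120456978-120457037 (mm9, plus strand). The part of the control slope in the spread of the clock genes was not tested, and the sampling time of these mice is unknown.

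**Figure D4:**
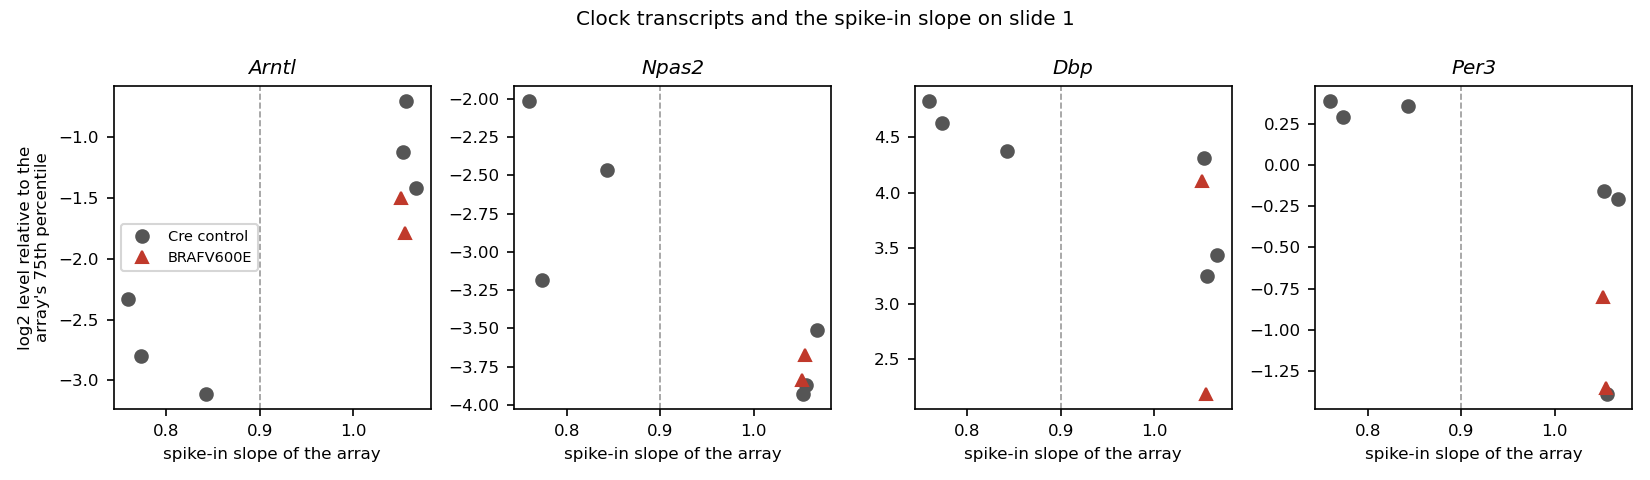
Log2 level of Arntl, Npas2, Dbp and Per3 against the slope of the added RNA controls (spike-ins), 1 point per array, on the 8 arrays of the slide that held both groups, with a dashed line at a slope of 0.9. The Cre control arrays with slopes of 0.76 to 0.84 have the 3 lowest Arntl levels of their group.

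Correlations within a group were computed for 4 pairs of genes in both groups, 8 relations in all, with exact permutation tests over the 720 pairings of 6 arrays. Dbp and Per3, which share an arm, rose and fell together in Cre control mice (r = 0.85, exact p = 0.00417, adjusted p = 0.0222, Spearman's rho = 0.94, exact p = 0.0167, adjusted p = 0.0667) and in BRAFV600E mice (r = 0.80, exact p = 0.00556, adjusted p = 0.0222, Spearman's rho = 0.94, exact p = 0.0167, adjusted p = 0.0667). Without the 2 arrays farthest from the median of Dbp, r was 0.65 and 0.98. Both calls were lost under quantile normalization (r = 0.79 and 0.76, adjusted exact p = 0.139 and 0.0889) and without scaling (r = 0.87 and 0.73, adjusted exact p = 0.200 and 0.215). For Arntl and Dbp, r was -0.73 in Cre control mice (exact p = 0.122, adjusted p = 0.244; rho = -0.71, exact p = 0.136, adjusted p = 0.218) and -0.57 in BRAFV600E mice (exact p = 0.235, adjusted p = 0.376; rho = -0.77, exact p = 0.103, adjusted p = 0.206). Without the 2 farthest arrays both were -0.64. For Arntl and Npas2, r was -0.78 in Cre control mice (exact p = 0.0792, adjusted p = 0.211; rho = -0.77, exact p = 0.103, adjusted p = 0.206) and 0.34 in BRAFV600E mice (exact p = 0.515, adjusted p = 0.589; rho = 0.31, exact p = 0.564, adjusted p = 0.644), and -0.64 and 0.86 without the 2 farthest arrays. For Arntl and Nr1d1, r was -0.40 (exact p = 0.422, adjusted p = 0.563; rho = -0.14, exact p = 0.803, adjusted p = 0.803) and -0.10 (exact p = 0.817, adjusted p = 0.817; rho = -0.31, exact p = 0.564, adjusted p = 0.644), and 0.38 and -0.35 without the 2 farthest arrays. All these values are on the probe used for each gene. Over the 20 arrays, with group means removed, the other Per3 probes correlated with the one used at 0.34 and 0.27. On the probes used, Dbp and Per3 were both higher on the low-slope Cre control arrays, by 0.94 and 0.93, and BRAFV600E arrays lay on 2 slides. The permutations held neither split fixed, so their p-values do not separate mice from these splits. The subsets by control slope or slide held at most 4 arrays of a group, too few for a correlation within them.

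In the MEK inhibitor experiment, Arntl, Nr1d1 and Dbp had higher means and Per1 a lower mean in MEKi than in Vehicle mice, but no member passed the threshold. None of the 10 was called by limma, where 1.98% of all genes were. These 4 passed an unadjusted limma p of 0.05, at ranks from 939 (Nr1d1) to 1630 (Per1) of 19230 genes. The count of all genes under 0.05 lay between that of Per1 and 4393, the rank of Clock at an unadjusted limma p of 0.092. The groups did not overlap for Arntl, Per1 and Dbp, 3 of 10 members, beside 12.2% of all genes. Of the 10, 7 had a higher mean in MEKi mice, with a median difference of 0.06 against 0.04 over all genes.

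Arntl measured -1.50, -0.84, -0.90 and -1.58 in MEKi mice and -2.48, -1.68, -2.35 and -1.89 in Vehicle mice. All 4 MEKi mice lay above all Vehicle mice. The difference was 0.90, or 1.86-fold (SE 0.25, 95% interval 0.32 to 1.47, limma adjusted p = 0.127), and the 4 Arntl probes were higher by 0.74 to 1.04. Dbp measured 4.70, 5.06, 4.70 and 5.13 in MEKi mice and 4.33, 3.38, 4.01 and 4.44 in Vehicle mice. The difference was 0.86, or 1.81-fold (SE 0.25, 95% interval 0.29 to 1.42, limma adjusted p = 0.136), and 0.69 on the other Dbp probe. The lowest Vehicle mouse for Dbp was replicate 2, the one with pancreas transcripts, and without it the difference was 0.64 (limma adjusted p = 0.131).

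Nr1d1 measured 1.08, 1.48, 0.53 and 1.18 in MEKi mice and 0.22, -0.08, -0.47 and 0.57 in Vehicle mice. MEKi replicate 3 lay just below Vehicle replicate 4, and the groups overlapped only there. The difference was 1.01, or 2.01-fold (SE 0.27, 95% interval 0.38 to 1.63, limma adjusted p = 0.117), and with array weights it was called (limma adjusted p = 0.0423). The Nr1d1 probe spans a splice junction at chr11:98630526-98631028 (mm9, minus strand), and is shown as the sequence behind this value.
Nr1d1 probe: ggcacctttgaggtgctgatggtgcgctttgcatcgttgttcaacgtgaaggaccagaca
Per1, a repressor gene that is acutely induced by clock-resetting signals, measured 2.23, 1.53, 2.05 and 1.75 in MEKi mice and 2.25, 2.68, 3.09 and 2.35 in Vehicle mice. All MEKi mice lay below all Vehicle mice, by as little as 0.02. The difference was -0.70 (SE 0.23, 95% interval -1.23 to -0.17, limma adjusted p = 0.181), while the other Per1 probe, dimmer, differed by 0.35. The remaining members did not reach an unadjusted p of 0.05. Per2 differed by -0.64 (SE 0.34), but by -0.02 (SE 0.31) on its other probe. Clock differed by -0.23 (SE 0.12), Npas2 by 0.33 (SE 0.35) and Nr1d2 by 0.11 (SE 0.15). Per3 differed by 0.02 (SE 0.22) and Cry1 by 0.00 (SE 0.27), while the other Per3 probes differed by -0.60 (SE 0.31) and -0.10 (SE 0.48) and the other Cry1 probe by -0.18 (SE 0.30).

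Arntl and Dbp, from opposite arms, were thus both higher in MEKi mice, and the index did not separate the groups. It was 0.14, -0.23, -0.05 and 0.47 in MEKi mice and 0.23, -0.42, -0.14 and 0.00 in Vehicle mice. These spreads, 0.30 and 0.27 (SD, n = 4), were narrower than those of the first experiment, which was not tested. Other transcripts moved with the groups. All 4 MEKi mice and 2 of the 4 Vehicle mice had Y-linked transcripts, and all 4 tested T lymphoid genes were higher in MEKi mice (median 0.87, none called). Their part in the clock genes' differences was examined for the Y-linked level alone: with it as a covariate the difference was 0.74 for Dbp (limma adjusted p = 0.411) and -0.78 for Per1 (limma adjusted p = 0.359), and those of Arntl and Nr1d1 stayed positive (limma adjusted p = 0.128 and 0.205). MEKi and Vehicle arrays lay on different rows of the slide, and row and group cannot be told apart.

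The other genes of the loop and its outputs were examined as lists chosen with earlier results of these data known. Of 17 other clock loop genes, 15 were tested in BRAFV600E against Cre control. The limma test called 1 higher, beside 6.19% of all genes, and 1 lower, beside 6.27%. Bhlhe40, a repressor at E-boxes, rose by 0.78 (SE 0.17, limma adjusted p = 0.0146), without overlap. Hlf, a relative of Dbp that binds D-boxes, fell by 2.48 (SE 0.61, limma adjusted p = 0.0226), from -1.75 ± 0.90 (SD, n = 6) to -4.22 ± 1.41 (SD, n = 6). Without the Cre control arrays of low control slope the Hlf difference was -1.79 (limma adjusted p = 0.235), and 20 of 25 alternatives called it. The list's median was -0.07. Of 9 tested clock output genes, 7 had a higher mean in BRAFV600E. The limma test called none lower, beside 6.27% of all genes, and 3 higher, beside 6.19%. These 3 were Noct (nocturnin, 0.87), Por (the electron donor of cytochromes P450, 0.77) and Nampt (the NAD salvage enzyme, 0.64). Their limma adjusted p values were 0.0178, 0.0472 and 0.0451, and the list's median was 0.27. Usp2, a deubiquitinase gene of the same list, differed by -1.36 (SE 0.47, limma adjusted p = 0.0726) and was called lower in 5 of 26 alternatives. Among them was slide as a block (-2.66, limma adjusted p = 0.00398), a difference taken from BRAFV600E replicates 1 and 2 against the Cre control mice.

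A list of 7 glucocorticoid response genes was set beside these, since glucocorticoids reset clocks in peripheral tissues. In BRAFV600E mice Errfi1 rose by 1.72 (SE 0.18, limma adjusted p = 0.000172) and Cebpd fell by 1.07 (SE 0.23, limma adjusted p = 0.0126), with a list median of -0.33. Errfi1 is also known as a feedback inhibitor of EGF receptor signalling. With slide as a block, Errfi1 and Usp2 were under the threshold, and the other 6 called genes of the lists were not. There too the differences come from BRAFV600E replicates 1 and 2 against the Cre control mice. The slide-block limma adjusted p was 0.181 for Bhlhe40, 0.0946 for Hlf, 0.192 for Noct, 0.412 for Por, 0.185 for Nampt and 0.106 for Cebpd. Over 26 alternatives each, Por was called in 10 and Nampt in 7, against 25 for Errfi1. Without the Cre control arrays of low control slope, Errfi1, Cebpd and Por stayed called (limma adjusted p = 0.00503, 0.0208 and 0.0471). Bhlhe40 (0.84), Noct (0.93) and Nampt (0.33) were not called there (limma adjusted p = 0.0853, 0.107 and 0.266). Beside these differences, all 4 tested T lymphoid genes and all 5 genes of neurons and glia had a lower mean in BRAFV600E. The limma test called 3 and 2 of them, beside 6.27% of all genes called lower. All 6 smooth muscle genes had a higher mean and 2 were called, beside 6.19% of all genes called higher. The part of these markers in the lists was not tested.

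In MEKi against Vehicle mice none of the 16 tested loop genes was called higher, beside 1.09% of all genes, or lower, beside 0.884%. Hlf differed by 1.38 (SE 0.40, limma adjusted p = 0.141). Por fell by 1.09 (SE 0.20, limma adjusted p = 0.0404), and was called in 8 of 18 alternatives, and no other of the 9 tested output genes was called. Errfi1 fell by 2.07 (SE 0.32, limma adjusted p = 0.0217), with all MEKi mice below all Vehicle mice, and was the only glucocorticoid response gene called. The list medians were -0.03, -0.34 and -0.16, against 0.04 over all genes.

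**Figure D5:**
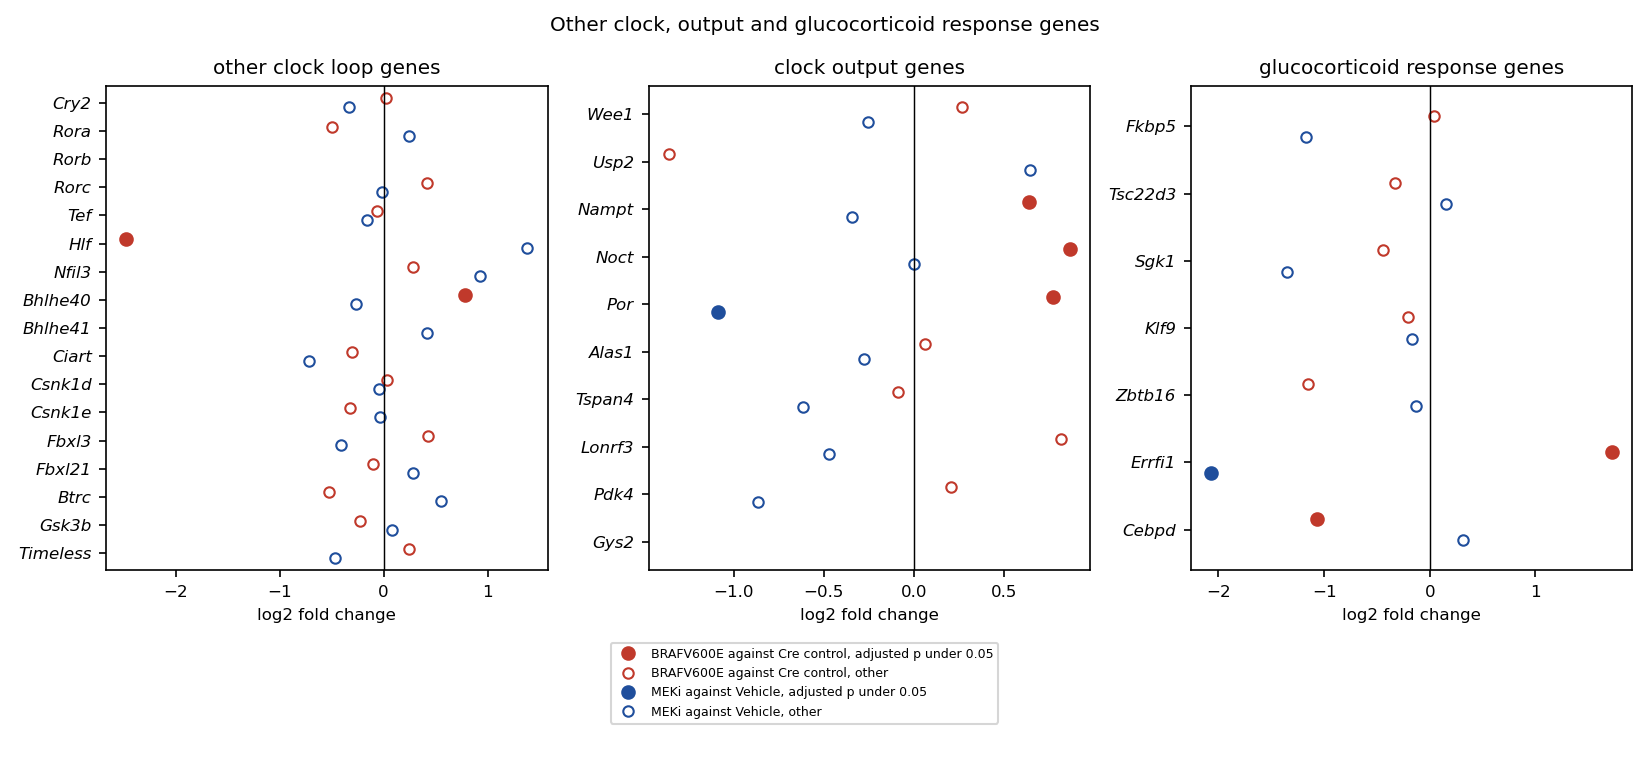
Log2 differences of the other loop, output and glucocorticoid response genes in both comparisons, 1 point per gene and comparison, filled where the limma adjusted p was under 0.05. Errfi1 (1.72 and -2.07) and Por (0.77 and -1.09) were called in both comparisons, with opposite signs.

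Genes outside the clock set were ranked by how closely their levels followed Arntl, on the probe used, over the 20 arrays, with group means removed. Among 18574 genes, Cox15, Dhx15, Ppp4r3a, Gopc and Exoc4 had the highest correlations, at 0.94 to 0.95. The lowest were those of Inhbe, Olfr30, Ccdc85b, Rps12 and Il17d, at -0.91 to -0.89. Among members, Per3 ranked 358 from the lowest end. These values are descriptions over arrays that share differences in labelling, and say nothing of common control.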

How the data were processed

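Each of the 20 arrays (Agilent SurePrint G3 Mouse, 1 colour) was scanned and extracted by the authors with Feature Extraction 10.5.1.1, and the deposited intensity is the background-subtracted, detrended signal of each spot, with deposited 0 or 1 marks for spots well above background. Here log2 intensity minus the array's 75th percentile was used. Probes of a gene were named through the RefSeq table, and the probe with the highest mean over 20 arrays stood for it. Genes entered a test when 50% or more of the arrays compared had that probe marked above background. Groups were compared within each experiment with limma 3.58.1 (R 4.3.3), two-sided, with Benjamini-Hochberg adjustment over all genes tested (19037 and 19230) and a threshold of 0.05. The fits were tested on simulated data in which 200 genes were shifted by 2 log2 units. Of these, 90.5% were called in BRAFV600E against Cre control and 77% in MEKi against Vehicle. Smaller shifts were not simulated. The simulated noise was independent between genes, without slide or control-slope differences, so it cannot show how the fits deal with those. Exact permutation tests used scipy 1.17.1. P-values measure the spread between these arrays, 1 per mouse, and precision is limited by how many arrays there are.

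The members, lists and tests were chosen with earlier results of these data known. The text names all members, list genes that were called, at most 4 examples of each list, and the 5 genes most and least like Arntl. Alternatives changed the background correction, scaling, filter, probe choice, samples, array weights, Y-linked signal and slide, and left out each array in turn. Settings that leave out arrays by control slope were chosen after seeing the data. Probe coordinates are those of the array design (mm9), and promoter windows are from RefSeq (GRCm38.p6). The treatment text on the labels (atorvastatin, female mice) is the same on all 20, conflicts with the groups and with Y-linked signal on 13 arrays, and was not used.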

Additional observations from a re-analysis of the deposited data

Results flagged for a closer look

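Of 40 sets of arrays (10 genes in 4 groups), 4 held an array farther from the others than Dixon's 95% limit allows, and chance alone flags about 1 in 20. Dbp was low in BRAFV600E replicate 2, at a log2 level of 2.19 against 4.02 to 4.98 in the other 5 mice, and the other Dbp probe was lowest there too (1.44 against 3.01 to 3.92). Per3 was low in Cre control replicate 1, at -1.39 against -0.21 to 0.39. Nr1d2 was low in the same mouse, at 0.72 against 1.53 to 1.85, and both other Nr1d2 probes were lowest there (-0.89 and 0.86). Cry1 was low in MEKi replicate 3, at -3.95 against -3.30 to -3.18, while the other Cry1 probe was not lowest there (-4.00, with a lowest value of -4.73).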

How the results depend on the processing

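In BRAFV600E against Cre control, 27 alternative settings gave 270 values of members, of which 35 turned sign and 10 were called by limma. In MEKi against Vehicle, 19 settings gave 190 values, of which 15 turned sign and 1 was called. No paired analysis was possible because the labels carry no replicate numbers that groups share. The number of members called was 1 (Clock) with normexp, with probes well above background on every array, with all 4 groups in 1 fit, with array weights and with slide as a block, and 3 (Clock, Cry1 and Nr1d1) without scaling. Leaving out single BRAFV600E or Cre control arrays gave 0 to 1, with Clock called without Cre control replicate 4 or BRAFV600E replicate 5. In MEKi against Vehicle it was 1 (Nr1d1) with array weights and 0 without any single array.

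Without scaling, where the median of all genes in BRAFV600E moved to 0.79, BRAFV600E differences were 0.67 for Arntl, 0.17 for Npas2, 0.62 for Per1, 0.66 for Per2, 0.37 for Per3, 0.70 for Cry1, 0.70 for Nr1d2 and 0.71 for Dbp, and MEKi differences were -0.0044 for Per3 and -0.025 for Cry1. Normexp gave 0.089 for Dbp (BRAFV600E) and -0.021 for Cry1 (MEKi), and quantile normalization 0.033 for Cry1 (BRAFV600E). The mean of all probes gave 0.071 for Per3, 0.30 for Cry1 and 0.068 for Nr1d2 in BRAFV600E, and -0.22 for Per3 and -0.090 for Cry1 in MEKi. Array weights gave 0.092 for Arntl, 0.069 for Per2 and -0.028 for Nr1d1 in BRAFV600E, and -0.047 for Cry1 in MEKi. The Y-linked covariate gave 0.0080 for Dbp in BRAFV600E, and -0.12 for Per3 and -0.23 for Cry1 in MEKi. Slide as a block, and the slide that held both groups alone, gave 0.27 for Arntl and -0.12 for Nr1d1, and moved Dbp to -0.996, Per3 to -0.96, Per1 to -0.64, Nr1d2 to -0.42 and Clock to 0.78 without a turn of sign. Both settings take these differences from BRAFV600E replicates 1 and 2 against the Cre control mice, so they are the same estimate. Without the Cre control arrays of low control slope, Per1 was 0.14, Per3 0.030, Nr1d2 0.087 and Dbp 0.37, and with in-range arrays alone Npas2 was 0.016. Leaving out single arrays gave -0.38 to 0.10 for Arntl, -0.28 to 0.28 for Dbp, -0.075 to 0.19 for Nr1d1 and -0.21 to 0.0070 for Cry1 in BRAFV600E, and -0.18 to 0.18 for Cry1 and -0.15 to 0.17 for Per3 in MEKi. The cause was not tested.

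The correlation of Dbp with Per3 lost its call under quantile normalization (0.79 and 0.76, adjusted exact p = 0.139 and 0.0889) and without scaling (0.87 and 0.73, adjusted exact p = 0.200 and 0.215) in Cre control and BRAFV600E mice. That of Arntl with Nr1d1 was 0.054 in BRAFV600E mice under quantile normalization, 0.33 and 0.45 in Cre control and BRAFV600E mice without scaling, and 0.38 in Cre control mice without the 2 farthest arrays.

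Of all genes, 2372 were called in BRAFV600E. This count was 4646 with normexp, 9337 without scaling, 3747 with array weights, 1534 with slide as a block and 746 within 1 slide. It was 414 without the Cre control arrays of low control slope and 25 with in-range arrays alone, and 1444 to 2888 without single arrays, lowest without Cre control replicate 3 (1444) and replicate 2 (1515). Of MEKi genes, 380 were called, and 72 without scaling, 234 without the filter, 239 with the mean of probes, 1230 with array weights, 53 with the Y-linked covariate and 83 to 371 without single arrays, with 83, 87 and 143 without MEKi replicates 1, 3 and 4 and 190, 116 and 115 without Vehicle replicates 1, 3 and 4.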
